A study of Mus musculus with 6 samples.

Results

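The unfolded protein response genes described here were 10 named genes: Hspa5, Hsp90b1, Ddit3, Atf4, Atf6, Xbp1, Ern1, Dnajb9, Trib3 and Herpud1. Their probe sets were those that the platform annotation pairs with exactly 1 gene symbol, that symbol being one of the 10. All 10 genes were on the array, with 27 probe sets among 45101 in all, and 10 of the 18194 gene symbols named in this way. The first group was 3 male mice carrying the aP2-nSREBP1c transgene (MUT in the labels), in which the promoter of the fatty acid binding protein gene aP2 drives the nuclear form of the lipogenic transcription factor SREBP-1c. That promoter is best known from fat cells and is also active in macrophages. The strain labels spell the transgene in 3 ways, as aP2-nSrebp1c, aP2-nSrebp1 and aP2-SREBP1c, always on C57BL6;SJL. The other group was 3 litter-matched wild type (WT) males on C57BL6;SJL. All 6 mice were 10 weeks old, no treatment is named, and total RNA of each epididymal white fat pad was hybridised to its own Affymetrix MOE430v2.0 array. The labels call the transgenic mice lipodystrophic.

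The endoplasmic reticulum (ER) folds membrane and secreted proteins, and the unfolded protein response is the programme by which a cell raises its folding and disposal capacity when unfolded proteins gather there. Its sensors sit in the ER membrane: IRE1α (Ern1) splices Xbp1 mRNA into the form that encodes an active factor, ATF6 is cut by the site-1 and site-2 proteases, and PERK (Eif2ak3) slows translation while that of ATF4 goes up. Chaperones such as BiP (Hspa5) and GRP94 (Hsp90b1), the co-chaperone ERdj4 (Dnajb9) and the degradation factor Herpud1 are known targets of ATF6 or spliced XBP1, and Ddit3 (CHOP) and Trib3 of ATF4. The same proteases release the membrane-bound SREBP precursors, whereas the nuclear form made by the transgene carries no membrane part. The arrays measured total RNA per probe set, so splicing of Xbp1, cleavage of ATF6 and translation of Atf4 were not measured.

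Promoter sequences of members are shown because the response is best known through short DNA elements in them. In the RefSeq promoter table (GRCm38.p6, 250 bases before to 50 after each gene start) 9 of the 10 members had a window of 300 bases. The ER stress element (ERSE: CCAAT, 9 bases of any kind, CCACG), searched on both strands, was in 2 of these 9 windows and in 0.119% of all 32851 windows. ERSE-II (ATTGG, 1 base of any kind, CCACG) was in 1 of 9 and in 0.0365% of all. The letters of the C/EBP-ATF response element (CARE, TGATGNAA), the site type of ATF4, were in 2 of 9, Trib3 and Herpud1, and in 3.97% of all. The match of Trib3, whose window is not printed, was a reverse one 14 to 21 bases after the gene start. The UPRE letters TGACGTGG (0.676% of all windows) and the sterol regulatory element letters ATCAC, 1 base of any kind, CCAC (0.234%) were in 0 of 9. The windows of Hspa5 at chr2:34771840-34772139 on the plus strand, Hsp90b1 at chr10:86705395-86705694 on the minus strand, Herpud1 at chr8:94386179-94386478 on the plus strand and Dnajb9 at chr12:44210019-44210318 on the minus strand are printed 5′ to 3′ in the direction of the gene, with every match to these elements in capitals.
Hspa5: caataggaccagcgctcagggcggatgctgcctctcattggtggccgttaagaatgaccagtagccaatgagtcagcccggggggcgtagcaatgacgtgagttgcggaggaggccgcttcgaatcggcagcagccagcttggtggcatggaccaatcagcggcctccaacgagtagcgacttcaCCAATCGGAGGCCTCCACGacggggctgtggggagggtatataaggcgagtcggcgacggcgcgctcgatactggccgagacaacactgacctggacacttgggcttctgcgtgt
Hsp90b1: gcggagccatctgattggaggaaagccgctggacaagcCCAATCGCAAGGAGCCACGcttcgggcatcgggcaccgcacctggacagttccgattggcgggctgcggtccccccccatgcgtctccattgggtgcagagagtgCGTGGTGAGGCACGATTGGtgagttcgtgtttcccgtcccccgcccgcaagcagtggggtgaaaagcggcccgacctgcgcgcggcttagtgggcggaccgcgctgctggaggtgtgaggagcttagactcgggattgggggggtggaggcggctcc
Herpud1: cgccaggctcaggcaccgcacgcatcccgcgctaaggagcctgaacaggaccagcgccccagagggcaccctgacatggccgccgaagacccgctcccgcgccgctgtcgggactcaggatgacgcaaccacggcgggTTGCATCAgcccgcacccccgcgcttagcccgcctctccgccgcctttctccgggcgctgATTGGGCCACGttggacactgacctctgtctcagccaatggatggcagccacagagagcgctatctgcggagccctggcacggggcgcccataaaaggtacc
Dnajb9: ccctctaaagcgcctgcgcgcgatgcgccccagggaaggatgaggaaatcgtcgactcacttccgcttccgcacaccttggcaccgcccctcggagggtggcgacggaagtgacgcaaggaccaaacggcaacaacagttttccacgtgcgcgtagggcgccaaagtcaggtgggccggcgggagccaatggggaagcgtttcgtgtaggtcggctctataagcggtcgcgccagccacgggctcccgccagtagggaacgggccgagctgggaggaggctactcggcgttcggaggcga
The exact ERSE match in the window of Hspa5 lay 65 to 47 bases before the gene start. Stretches that differ from the searched letters were not counted in any window. Hsp90b1 held a forward match 212 to 194 bases before its start and a reverse match 107 to 89 bases before it. Herpud1 held ERSE-II 52 to 42 bases before its start and a reverse CARE match 112 to 105 bases before it. No element in the search was found in the window of Dnajb9, which is shown because it is the member whose RNA rose. The elements are known through promoters of members, so their shares among the members are a description and not a test. A match is only a stretch of letters, and nothing here measured binding.

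The values are linear MAS5 signals, tested as log2(signal + 16) with limma, and adjusted p-values are by Benjamini-Hochberg over all 27023 probe sets tested, with a threshold of 0.05. One array stood apart. On the array of transgenic replicate 2 the 3′ over 5′ signal ratio was 122 for the beta-actin control and 55.9 for the Gapdh control, against 1.11 to 1.81 and 0.772 to 1.22 on the other 5 arrays, the usual sign of shortened RNA. Values are therefore also given without it. The tissue markers were present: Adipoq and Lep, which encode the fat hormones adiponectin and leptin, fell but stayed at mean signals of 5979 and 353 in transgenic fat, against 11293 and 4802 in WT fat. Srebf1, which encodes SREBP-1, had signals of 3471, 4753 and 4338 in transgenic replicates 1 to 3, against 1802, 2040 and 2036 in WT replicates 1 to 3 (log2 fold change 1.08 ± 0.19 SE, limma adjusted p = 0.0342). No source used here says whether this probe set also reads the transgene. In these bulk samples fewer cells of a type and less RNA per cell cannot be told apart.

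Of the 10 genes, Dnajb9 was the only one with a probe set past the threshold, and it rose. Of the 27 member probe sets 23 passed the filter on dim signals and were tested, 1 rose, 0 fell and 22 did not pass, which makes 4.35% higher where 1.67% of all tested probe sets were higher and 1.3% lower. At an unadjusted p under 0.05 limma had 4 of the 23 higher and 0 lower, beside 7.76% and 8.66% of all tested. Without transgenic replicate 2 the adjusted count was again 1 higher, Dnajb9, and 0 lower, where the background was 6.96% higher and 6.23% lower. At an unadjusted p under 0.05 that fit had 5 of the 23 higher and 3 lower, beside 13.7% and 12.5% of all tested. The groups did not overlap in 4 tested member probe sets with transgenic fat above (17.4%, against 11.9% of all tested) and in 3 with transgenic fat below (13.0%, against 15.3%). The 4 above were of Hsp90b1, Atf4, Ern1 and Dnajb9, and the 3 below were all of Xbp1. The median log2 fold change of the 23 was 0.04, and −0.09 over all tested probe sets; without transgenic replicate 2 these were 0.29 and 0.03.

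**Figure D1:**
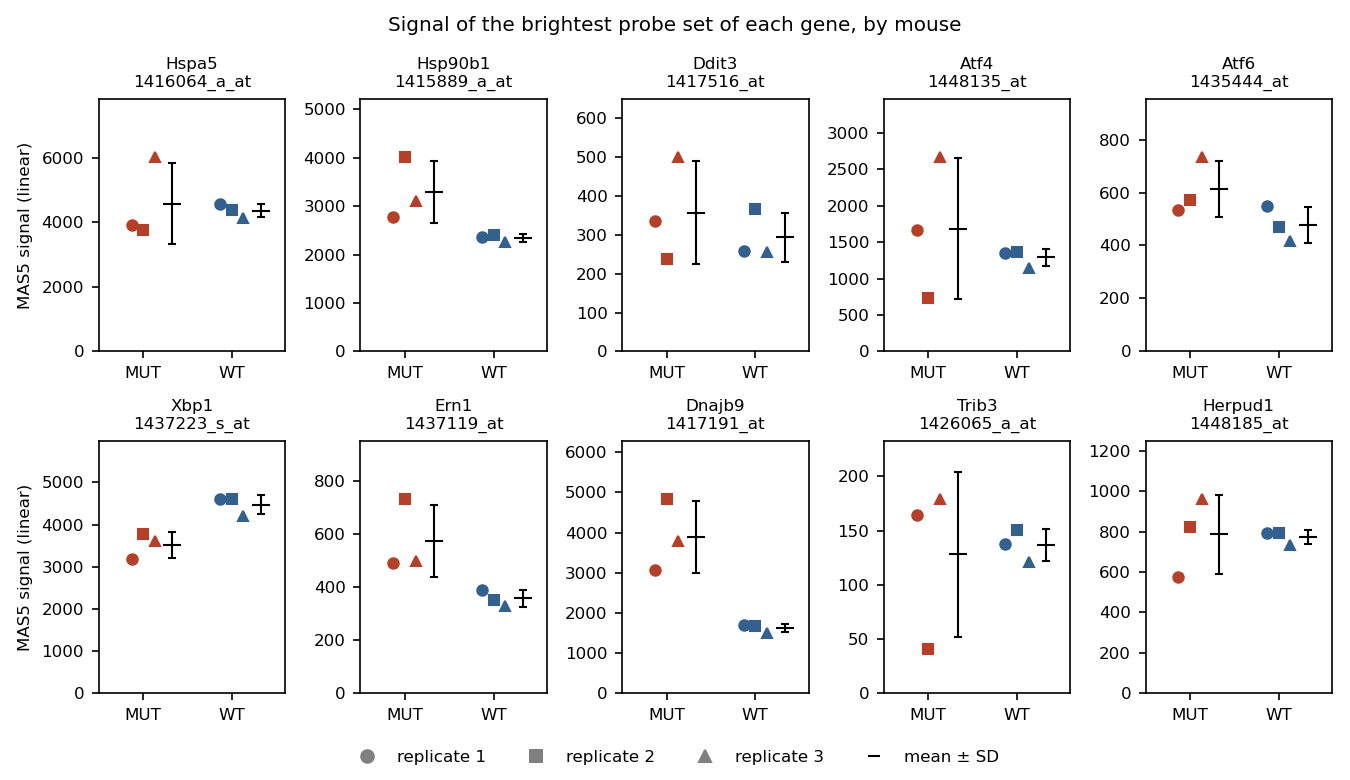
MAS5 signal (linear axis from 0) of the brightest tested probe set of each of the 10 genes, 1 point per mouse, transgenic (MUT) left of WT, with the mean ± SD beside each group. Dnajb9 sits between 3069 and 4831 in transgenic fat, against 1505 to 1689 in WT fat, while Xbp1 is lower in every transgenic mouse and Hspa5 and Herpud1 overlap.

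Dnajb9 encodes ERdj4, an ER-resident J-domain co-chaperone of BiP that takes part in the disposal of misfolded proteins. Its single probe set, 1417191_at, had signals of 3069, 4831 and 3781 in transgenic replicates 1, 2 and 3, against 1689, 1683 and 1505 in WT replicates 1, 2 and 3. Every transgenic mouse lay above every WT mouse, and the lowest transgenic value was that of replicate 1. The means were 3894 ± 886 in transgenic fat and 1626 ± 105 in WT fat (SD, n = 3 each), 2.34-fold higher in the fit (log2 fold change 1.23 ± 0.22 SE, limma adjusted p = 0.0353). Without transgenic replicate 2 the log2 fold change was 1.06 ± 0.16 SE (adjusted p = 0.00236), so the rise was also called without the array that stood apart. Arrays also differed in the 3′ over 5′ ratio of the Pcx control, 3.10 on transgenic replicate 1, 3.06 on WT replicate 3 and 14.1 to 52.0 on the other 4. Within these classes the difference for Dnajb9 was 1.02 and 1.33. The call was lost without transgenic replicate 3 (adjusted p = 0.114) and without WT replicate 1 (0.172), 2 (0.188) or 3 (0.192), with log2 fold changes of 1.17 to 1.26. It was also lost without the filter (0.0572), without the variance trend (0.0526) and after centring on array medians (1.35, adjusted p = 0.111), and kept after quantile normalization (1.12, adjusted p = 0.0157).

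The genes most like Dnajb9 over the 6 arrays, by Pearson correlation of log2 values among 13112 genes, were Nup50 (a nuclear pore component, r = 0.999), Tmem199 (r = 0.999) and Atp6v1h, a subunit of the vacuolar proton pump (r = 0.998). The 6 points share the difference between the groups, and 550 genes had r above 0.95, so the ranking is a description only. Tmem199 averaged 447 in transgenic fat and 231.5 in WT fat.

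Summed markers of several cell types differed between the groups, while those of fibroblasts and progenitors and of the epididymis overlapped. Of all 13112 genes tested, 2.23% were higher and 1.54% lower past the threshold, 8.04% and 7.33% without transgenic replicate 2, and 9.44% and 8.95% at an unadjusted p under 0.05. The summed signal of 10 macrophage markers was 23698 to 33393 in transgenic fat, against 13886 to 16534 in WT fat, and Mpeg1 and Fcgr1 rose of the 10 while 8 did not pass (6 rose and 4 did not pass without transgenic replicate 2). For 9 markers of B and plasma cells, cells rich in ER, the sum was 2035 to 4540 in transgenic fat and 973.5 to 1270 in WT fat. Jchain, the joining chain of secreted antibodies, rose to a mean of 2299 in transgenic fat, against 341 in WT fat, while 7 of 8 tested did not pass and none of the 9 was under 16 on every array. Without Jchain the other 8 summed to 1370.5, 907 and 991 in transgenic replicates 1 to 3, against 668.0, 806 and 738 in WT replicates 1 to 3. They did not all lie on 1 side: Irf4, a factor of B and plasma cells, had 70.9, 12.8 and 48.8 in transgenic fat and 191, 176 and 122 in WT fat (−1.69, adjusted p = 0.108). Tnfrsf17, the plasma cell receptor BCMA, was too dim to be tested, at 6.2 to 15.7 in transgenic fat and 30.6 to 47.9 in WT fat. Leaving out transgenic replicate 2, 2 of the 8 tested rose, Jchain and Sdc1, and Irf4 fell (−1.23, adjusted p = 0.0121). Sums of 7 neutrophil markers were 617 to 899 in transgenic fat and 276 to 352.5 in WT fat. Camp alone rose of 6 tested (Camp and S100a9 without transgenic replicate 2). It had 131 to 166 in transgenic fat but only 1.9 to 7.8 in WT fat, so it passed the filter on dim signals through its transgenic values. Adipocyte markers (8) summed to 30041 to 46686 in transgenic fat, against 63361 to 69870 in WT fat. Adipoq and Lep were lower and 6 were not past the threshold (5 lower and 3 not past it without transgenic replicate 2). Among those not past it, Fabp4, which encodes a fatty acid binding protein, averaged 13343 in both groups (log2 fold change 0.0015, limma adjusted p = 0.995). Endothelial markers (7) summed to 1416 to 6117 in transgenic fat and 8912 to 10307 in WT fat, with 0 past the threshold by limma (3 lower at an unadjusted p under 0.05, and 5 lower past the threshold without transgenic replicate 2). For 7 fibroblast and progenitor markers the sums overlapped, at 19698 to 25312 in transgenic fat and 20206 to 23970 in WT fat, with 0 past the threshold (1 higher and 1 lower unadjusted, and 1 lower past the threshold without transgenic replicate 2). Epididymis markers were near background, with 6 summing to at most 129 in transgenic fat and 125 in WT fat, and Lcn5, Adam7 and Spint4 under 16 on every array. Transgenic replicate 2 had the lowest transgenic sum for adipocyte and endothelial markers, and the highest for those of B and plasma cells and of neutrophils. The part of any of these cell types in the rise of Dnajb9 was not tested.

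The major ER chaperones did not pass the test. Hspa5, which encodes BiP, the chaperone that holds the sensors inactive, had signals of 3932, 3771 and 6020 in transgenic replicates 1 to 3 in its brightest probe set (1416064_a_at), against 4561, 4391 and 4139 in WT replicates 1 to 3. Transgenic replicate 3 was the highest and the other transgenic mice the lowest of the 6. The log2 fold change was 0.04 (95% interval −0.47 to 0.54, adjusted p = 0.945), and −0.11 after quantile normalization, so it has no direction. A second probe set of Hspa5 (1427464_s_at) had 2476, 907 and 3195 in transgenic fat and 2262, 2280 and 1962 in WT fat, with only transgenic replicate 2 below the WT mice. Its log2 fold change was −0.16 (adjusted p = 0.878), and 0.38 (−0.0025 to 0.76, adjusted p = 0.194) without that array. The dimmest ran from 422 to 591 in transgenic fat and from 363 to 493 in WT fat (0.27, adjusted p = 0.628).

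Hsp90b1 encodes GRP94, the ER form of HSP90. Its brighter probe set (1415889_a_at) had signals of 2779, 4010 and 3105 in transgenic replicates 1 to 3, against 2362, 2410.5 and 2249 in WT replicates 1 to 3. The groups did not overlap, but the difference of 0.48 (0.01 to 0.94) did not pass after adjustment (adjusted p = 0.296, and 0.190 without transgenic replicate 2, where the log2 fold change was 0.33). The other probe set (1438040_a_at) had 2160, 53.4 and 2089 in transgenic replicates 1 to 3 and 452.5, 1460 and 2169 in WT replicates 1 to 3. It was near background on the array with the high 3′ over 5′ ratios, and WT replicate 1 was also low. Its log2 fold change was −0.75 (−4.00 to 2.51), and 0.90 (−0.26 to 2.06) without transgenic replicate 2.

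Herpud1, a membrane protein of the ER degradation complex and a target of several branches, also stayed below the threshold. Probe set 1448185_at had 575, 823 and 960 in transgenic replicates 1 to 3, against 794, 793 and 732 in WT replicates 1 to 3. The transgenic mice lay on both sides of the WT range, with a log2 fold change of −0.01 (−0.63 to 0.62, adjusted p = 0.994) whose sign turned after quantile normalization (0.01) and median centring (0.11). Probe set 1435626_a_at had 874, 210 and 824 in transgenic fat and 852, 779 and 874 in WT fat (−0.62, adjusted p = 0.594). Leaving that array out gave 0.02 (−0.35 to 0.40, adjusted p = 0.948).

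**Figure D2:**
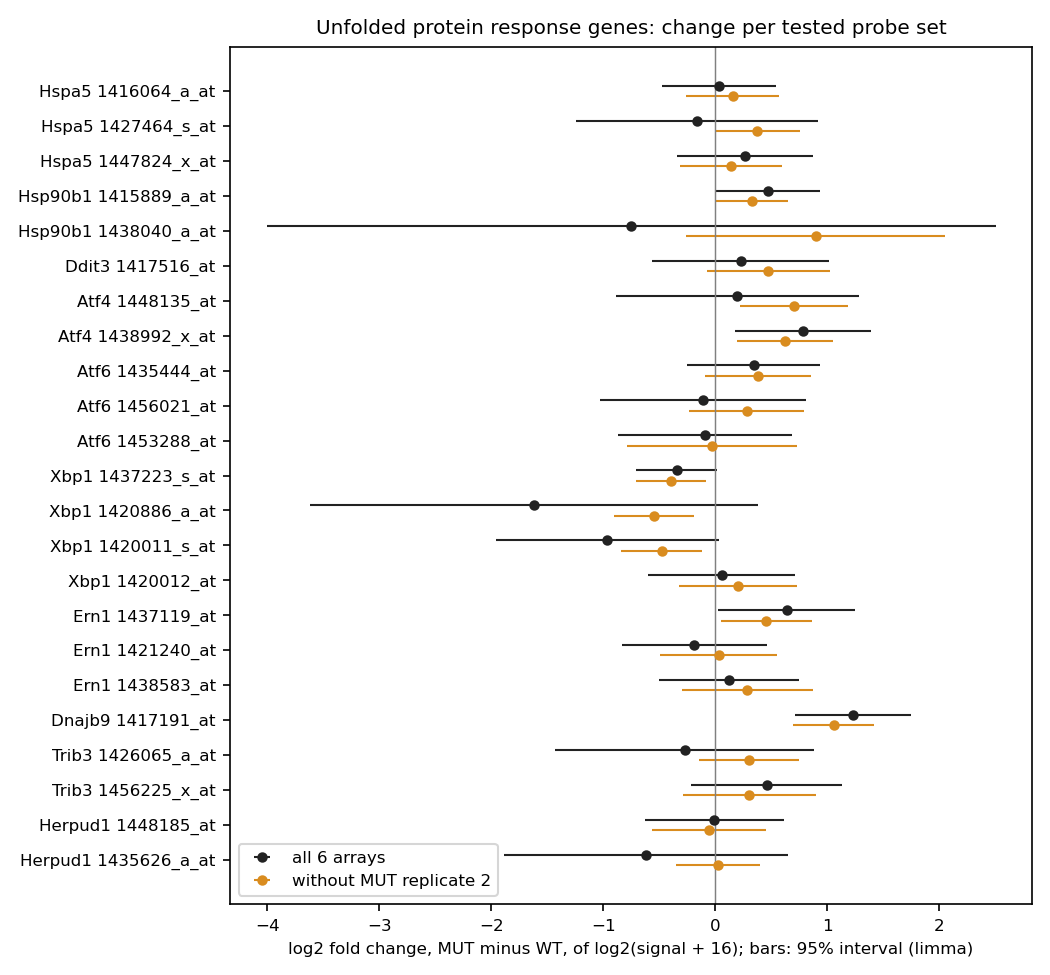
Log2 fold change of transgenic (MUT) over WT fat on the log2(signal + 16) scale for the 23 tested member probe sets, with 95% intervals from limma, for all 6 arrays (black) and without transgenic replicate 2 (orange). Dnajb9 lies farthest clear of 0 in both fits. The intervals of Atf4 1438992_x_at, Ern1 1437119_at and Hsp90b1 1415889_a_at also leave out 0 in both, without passing after adjustment. The widest intervals, of Hsp90b1 and Xbp1 probe sets, shrink when that array is left out.

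Neither the sensor gene Ern1 nor its substrate Xbp1 passed the test with all arrays, and their brightest probe sets lay on opposite sides of WT. Xbp1, whose spliced mRNA encodes the active factor of this branch, had signals of 3182, 3774 and 3617 in transgenic replicates 1 to 3 in its brightest probe set (1437223_s_at), against 4602, 4600 and 4209 in WT replicates 1 to 3. All 3 transgenic mice were below all WT mice (log2 fold change −0.34, 95% interval −0.71 to 0.02, adjusted p = 0.329). A second probe set (1420886_a_at) had 2943.5, 282 and 2620 in transgenic fat and 3584, 4646 and 3994 in WT fat, and another (1420011_s_at) 1057, 397.5 and 1187 in transgenic fat and 1465, 1680 and 1551 in WT fat. Both were again lower in every transgenic mouse, most of all on the array of replicate 2. Their log2 fold changes were −1.62 (adjusted p = 0.403) and −0.96 (adjusted p = 0.324).

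When transgenic replicate 2 was left out, these 3 Xbp1 probe sets came close together, at −0.40, −0.54 and −0.47 (limma adjusted p = 0.103, 0.0541 and 0.0914). With quantile normalization as well they were −0.50, −0.65 and −0.53 (adjusted p = 0.00641, 0.0514 and 0.0228), so that 2 of them passed only under that setting. The dimmest probe set of Xbp1 (1420012_at) had 173.5, 139 and 219 in transgenic fat and 182, 199 and 128 in WT fat, which overlap (0.06, adjusted p = 0.930). Nothing in the files says whether these probe sets tell spliced from unspliced mRNA.

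Ern1, which encodes the kinase and endonuclease IRE1α, had signals of 493, 733 and 501 in transgenic replicates 1 to 3 in its brightest probe set (1437119_at), against 392, 353.5 and 330 in WT replicates 1 to 3. Each transgenic mouse was above each WT mouse, yet the log2 fold change of 0.64 (0.02 to 1.25) had an adjusted p of 0.288; with transgenic replicate 2 left out they were 0.46 and 0.141. The other tested probe sets overlapped between the groups. They ran from 45.8 to 95.9 in transgenic fat and 74.5 to 87.2 in WT fat (−0.18, adjusted p = 0.759), and from 47.4 to 79.3 in transgenic fat and 42.4 to 71.5 in WT fat (0.13, adjusted p = 0.831). The remaining Ern1 probe sets were too dim to be tested, with 20.5 to 35.4 in transgenic fat and 16.5 to 38.6 in WT fat for one, and 2.8 to 4.8 in transgenic fat and 2.6 to 8.2 in WT fat for the other.

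**Figure D3:**
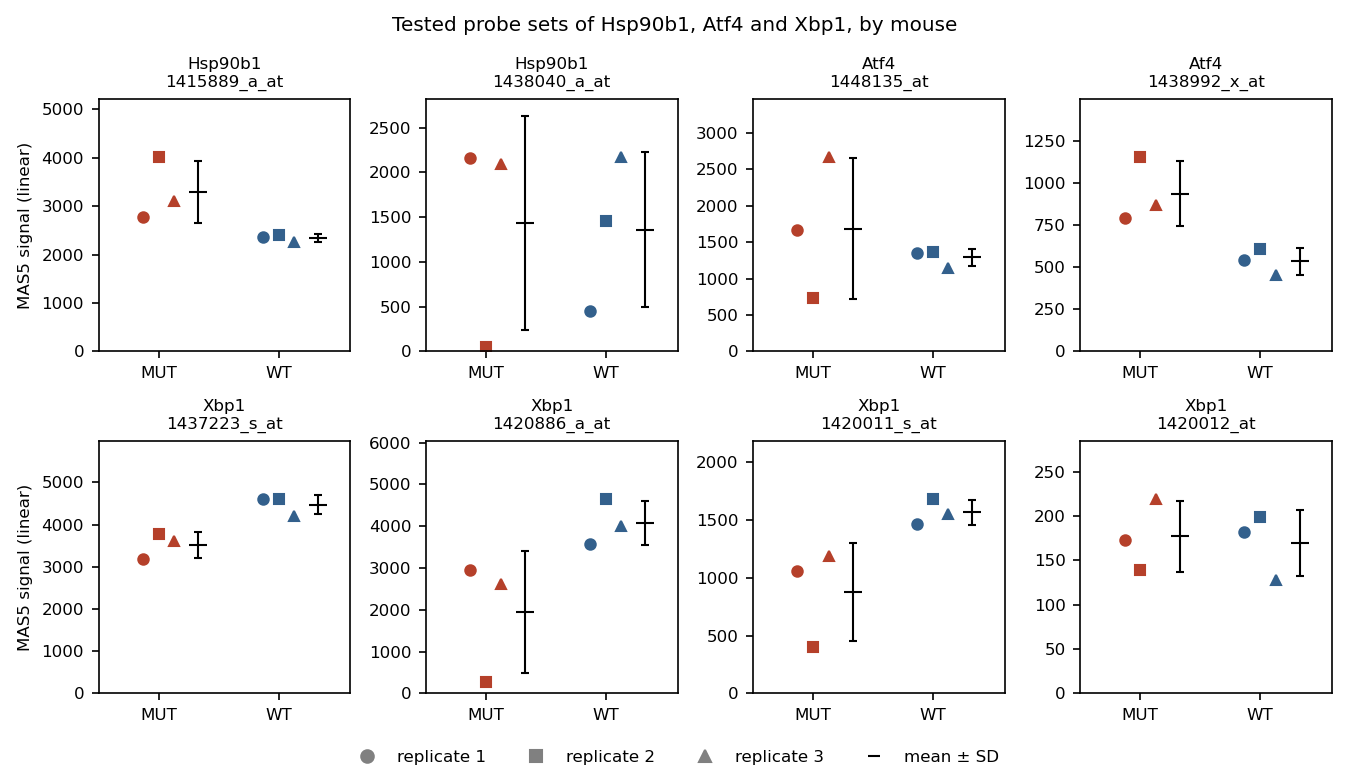
MAS5 signal (linear axis from 0) of all tested probe sets of Hsp90b1, Atf4 and Xbp1, 1 point per mouse, transgenic (MUT) left of WT, with the mean ± SD beside each group. Within each gene the square of transgenic replicate 2 is high or level in one probe set and low in another, for example 1153 and 727 for Atf4.

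No member of the ATF4 branch passed the test with all arrays. Atf4, the factor translated when PERK is active, had signals of 1667, 727 and 2667 in transgenic replicates 1 to 3 in its brightest probe set (1448135_at), against 1355, 1365 and 1152 in WT replicates 1 to 3. Transgenic replicates 1 and 3 were above all WT mice and replicate 2 below them, and the log2 fold change was 0.20 (−0.88 to 1.28, adjusted p = 0.846). The second probe set (1438992_x_at) had 791, 1153 and 867 in transgenic fat and 540.0, 610 and 454 in WT fat, without overlap. Its log2 fold change was 0.78 (0.18 to 1.39, adjusted p = 0.192). On the other 5 arrays these probe sets gave 0.71 and 0.63 (limma adjusted p = 0.0624 and 0.0619), and with quantile normalization as well 0.63 and 0.61 (adjusted p = 0.0175 and 0.0388), past the threshold under that setting only. The remaining Atf4 probe set was at background, with signals of 3.6 to 7.9 in transgenic fat and 3.6 to 6.3 in WT fat, and was not tested.

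Ddit3, which encodes the death-linked factor CHOP, had in probe set 1417516_at signals of 334, 238 and 499.7 in transgenic replicates 1 to 3, against 259, 367 and 254.5 in WT replicates 1 to 3. The groups overlapped, with a log2 fold change of 0.23 (−0.56 to 1.02, adjusted p = 0.755); leaving out transgenic replicate 2 gave 0.48 (0.258 after adjustment). Its other probe set was dim, at 2.0 to 26.7 in transgenic fat and 5.7 to 23.0 in WT fat, and was not tested. Trib3, a pseudokinase that binds AKT, had 164, 40.7 and 179 in transgenic fat and 137, 151 and 121 in WT fat in probe set 1426065_a_at. Its other probe set (1456225_x_at) had 82.2, 144 and 119 in transgenic fat and 102, 62.0 and 71.7 in WT fat. Replicate 2 was thus the lowest transgenic mouse in one and the highest in the other, and their log2 fold changes were −0.27 (adjusted p = 0.802) and 0.46 (adjusted p = 0.473). Leaving that array out gave 0.30 (−0.15 to 0.75) and 0.31 (−0.29 to 0.90), again short of the threshold (adjusted p = 0.388 and 0.525).

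Atf6 encodes the sensor that becomes a transcription factor once cut. Its brightest probe set (1435444_at) had signals of 533, 573 and 733.5 in transgenic replicates 1 to 3, against 549, 469 and 416 in WT replicates 1 to 3. Only transgenic replicate 1 lay inside the WT range, and the log2 fold change was 0.34 (−0.25 to 0.94, adjusted p = 0.533). The other probe sets overlapped widely, at 85.7 to 262 in transgenic fat and 154 to 197 in WT fat, and at 43.9 to 86.5 in transgenic fat and 42.6 to 93.4 in WT fat. Their log2 fold changes of −0.11 and −0.09 (adjusted p = 0.903 and 0.906) turned positive after quantile normalization (0.11 and 0.07) and after median centring (0.01 and 0.03).

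Probe sets of one gene could disagree on the array of transgenic replicate 2, the only array for which this was measured. Relative to the mean of the other transgenic arrays, that array differed by −4.95 to 0.55 on the log2(signal + 16) scale over the 23 member probe sets. The median over all tested probe sets was −0.30, with 5th and 95th percentiles of −2.84 and 0.91. In 8 of the 23 it was lower by more than 1, as in 28.0% of all tested probe sets, and in 0 of the 23 higher by more than 1 (3.25% of all). Within the 8 members with several tested probe sets, the span between the highest and the lowest of these differences had a median of 2.03. The span was 5.39 for Hsp90b1, 3.38 for Xbp1 and 1.06 for Atf6, and its median over 5826 genes with several tested probe sets was 1.41. The other transgenic arrays lay above the WT mean in 17 (replicate 1) and 18 (replicate 3) of the 23 member probe sets, where 45.1% and 60.6% of all tested probe sets did, and replicate 2 in 8 of 23 (39.6% of all).

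**Figure D4:**
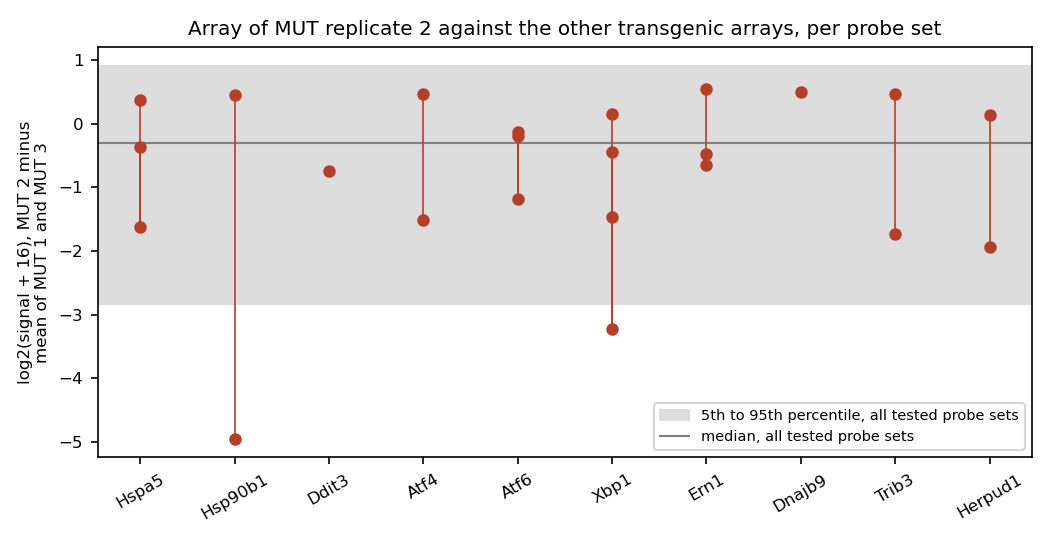
Difference in log2(signal + 16) between the array of transgenic (MUT) replicate 2 and the mean of replicates 1 and 3, 1 point per tested member probe set, joined within a gene, over the 5th to 95th percentile (grey) and the median (line) of all tested probe sets. The members range from 0.55 for an Ern1 probe set to −4.95 for an Hsp90b1 probe set, the last outside the grey band together with 1 Xbp1 probe set.

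Beyond the members, 127 other genes of the response and of the secretory route were grouped in 6 lists, each gene being read from whichever of its tested probe sets was brightest on average. Of 119 tested, 3 rose, 2 fell and 114 did not pass, which is 2.52% and 1.68% beside 2.23% and 1.54% of all genes tested. Without transgenic replicate 2 there were 12 higher and 8 lower, 10.1% and 6.72%, beside 8.04% and 7.33% of all. The shares were thus near those of all genes. The median log2 fold change of the 119 was 0.13, against −0.04 over all 13112 genes, and 0.19 against 0.02 without transgenic replicate 2.

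Among 22 ER chaperones and folding enzymes only Ero1a, the oxidase that recharges protein disulfide isomerases, rose. It had signals of 1095, 2101 and 1512 in transgenic replicates 1 to 3, against 556, 452 and 422 in WT replicates 1 to 3, without overlap (log2 fold change 1.65 ± 0.30 SE, limma adjusted p = 0.0387), and 2 of its 3 tested probe sets passed. Fkbp11, an ER prolyl isomerase gene, had 245.5, 178 and 295 in transgenic fat and 91.2, 87.8 and 89.2 in WT fat (1.25 ± 0.25 SE, adjusted p = 0.0541). It passed when replicate 2 of the transgenic mice was left out (1.44, adjusted p = 0.00139), in 1 of its 2 tested probe sets. The list's median was −0.01, and 0.18 without that array, when Ero1a, Fkbp11 and the isomerase gene Fkbp2 were the 3 that rose. Fkbp2 had 0.60 there (limma adjusted p = 0.0488) and −0.16 with all arrays. The 3 were 13.6% of the list, beside 8.04% of all genes without that array. Hyou1, a large HSP70 relative, Sdf2l1, an ER protein of the BiP cycle, Dnajc3, a BiP co-chaperone, and Creld2 had log2 fold changes of 0.26, −0.37, 0.29 and 0.50 (adjusted p of 0.429 to 0.783).

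None of 19 genes of ER-associated degradation passed with all arrays (0 by limma, and 1 higher at an unadjusted p under 0.05, where 9.44% of all genes were), with a list median of 0.09. Selenos, a selenoprotein of the degradation complex, had signals of 1820, 2214 and 2077 in transgenic replicates 1 to 3, against 1001, 1118 and 1230 in WT replicates 1 to 3. Its groups did not overlap, and it passed only without transgenic replicate 2 (0.86 with all arrays, adjusted p = 0.0849; 0.80, adjusted p = 0.0134, without). Edem1 and Sel1l, a mannosidase-like lectin and the scaffold of the ubiquitin ligase, had 0.09 (adjusted p = 0.870) and 0.13 (adjusted p = 0.806).

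Of 30 genes of the PERK branch and targets of ATF4, 26 did not pass, 2 rose (6.67%) and 2 fell (6.67%), beside 2.23% and 1.54% of all genes. Nupr1, a stress-induced chromatin protein, had signals of 4443.5, 3558 and 5149 in transgenic replicates 1 to 3, against 1481, 1304 and 1022 in WT replicates 1 to 3 (1.78 ± 0.23 SE, limma adjusted p = 0.0127). Atf3, a stress transcription factor, had 474.5, 528 and 771 in transgenic fat and 190, 201 and 155 in WT fat (1.59 ± 0.28 SE, adjusted p = 0.0337). Both were higher in each transgenic mouse than in any WT mouse. Phgdh, the first enzyme of serine synthesis, fell to 326, 192 and 321 in transgenic fat, against 5107, 5012 and 4631 in WT fat (−4.10 ± 0.26 SE, adjusted p = 0.00142), and all 4 of its tested probe sets passed. Stc2, a secreted glycoprotein, fell to 142.5, 123 and 164 in transgenic fat, against 418, 432 and 346 in WT fat (−1.38 ± 0.24 SE, adjusted p = 0.0327). Of the 3 tested probe sets of Stc2, 2 passed.

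Of these genes and Ero1a, only Phgdh kept its call whichever array was left out (adjusted p at most 0.0233). Without WT replicates 1, 2 and 3 the adjusted p was 0.156, 0.214 and 0.204 for Ero1a, 0.0607, 0.0895 and 0.0786 for Nupr1, 0.177, 0.181 and 0.195 for Atf3 and 0.189, 0.212 and 0.137 for Stc2. Without transgenic replicate 3 it was 0.122 for Ero1a, 0.0585 for Nupr1, 0.0918 for Atf3 and 0.0789 for Stc2, and without transgenic replicate 1 it was 0.0501 for Atf3 and 0.0673 for Stc2. All of them passed without transgenic replicate 2. Median centring ended the calls of Ero1a (adjusted p = 0.0779) and Stc2 (0.0657), and the Pcx class as a block that of Stc2 (0.0573).

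Leaving out transgenic replicate 2, the list had 4 higher and 6 lower of 30 (13.3% and 20%, beside 8.04% and 7.33% of all genes). Besides Nupr1 and Atf3, the amino acid transporter gene Slc7a5 (1.64, adjusted p = 0.00132) was higher, and besides Phgdh and Stc2 the asparagine synthetase gene Asns (−0.96, adjusted p = 0.0147) and Sesn2, a stress-induced regulator of growth signalling (−0.90, adjusted p = 0.0286), were lower. The others, named after their values were seen, were Cebpb (0.77), Vldlr (−0.89) and Eif4ebp1 (−0.79). Asns had 525, 724.5 and 770 in transgenic fat and 1405, 1121 and 1252 in WT fat, lower in every transgenic mouse. The sensor gene Eif2ak3 had a log2 fold change of 0.10 with all arrays (adjusted p = 0.867), and Ppp1r15a, the subunit that reverses its action, −0.93 (adjusted p = 0.497; −0.20 without transgenic replicate 2). Chac1, an enzyme of glutathione breakdown, had 0.59 (adjusted p = 0.407).

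Neither the 12 genes of ATF6 processing nor the 11 of death signalling nor the 25 of the translocon and secretory entry had one past the threshold with all arrays. By limma each count was 0, and at an unadjusted p under 0.05 the lists had 0 higher and 1 lower, 2 higher and 1 lower, and 5 higher and 0 lower, beside 9.44% higher and 8.95% lower of all genes. Mbtps1, the site-1 protease that cuts both ATF6 and SREBP precursors, had signals of 803, 715 and 935 in transgenic replicates 1 to 3, against 1219, 1144 and 1090 in WT replicates 1 to 3. All transgenic mice were below all WT mice (−0.49 ± 0.22 SE, adjusted p = 0.325). Mbtps2, the site-2 protease, had 262.5, 737 and 394 in transgenic fat and 245, 226 and 258 in WT fat (0.77 ± 0.38 SE, adjusted p = 0.383), and Atf6b −0.68 (adjusted p = 0.411).

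In the fit on the other 5 arrays the translocon list had Sec11c, a signal peptidase subunit (0.70, adjusted p = 0.0286), and Rpn1, of the oligosaccharide transferase (0.63, adjusted p = 0.0470), higher, and 0 lower. That was 8% higher, where 8.04% of all genes were higher and 7.33% lower. In death signalling 2 of 11 were higher there and 2 lower (18.2% each, beside the same shares of all genes). Higher were Bbc3, which encodes PUMA (1.20, adjusted p = 0.00687), and Tmbim6, named after its values were seen (0.56). Lower were the stress kinase gene Map3k5 (−0.91, adjusted p = 0.0166) and Bok, of the BCL2 family (−0.90, adjusted p = 0.0369). With all arrays Bbc3, Tmbim6, Map3k5 and Bok had 0.54, 0.18, −0.62 and −0.83 (limma adjusted p of 0.198 to 0.805). Only for Bok did the groups not overlap. In the fit on the other 5 arrays ATF6 processing too had 0 of 12 past the threshold (1 higher and 2 lower at an unadjusted p under 0.05, beside 15.3% and 14% of all genes). The translocon list had the highest median of the lists with all arrays, 0.39 (0.27 without transgenic replicate 2), though 0 of its 25 genes passed. Above 0 with all arrays were 20 of its 25 genes, beside 68 of the 119 genes of all lists. The share of all tested probe sets above 0 was 42.9%, which counts probe sets and not genes. The medians of the translocon list were 0.08, 0.66 and 0.45 for transgenic replicates 1, 2 and 3 against the WT mean.

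**Figure D5:**
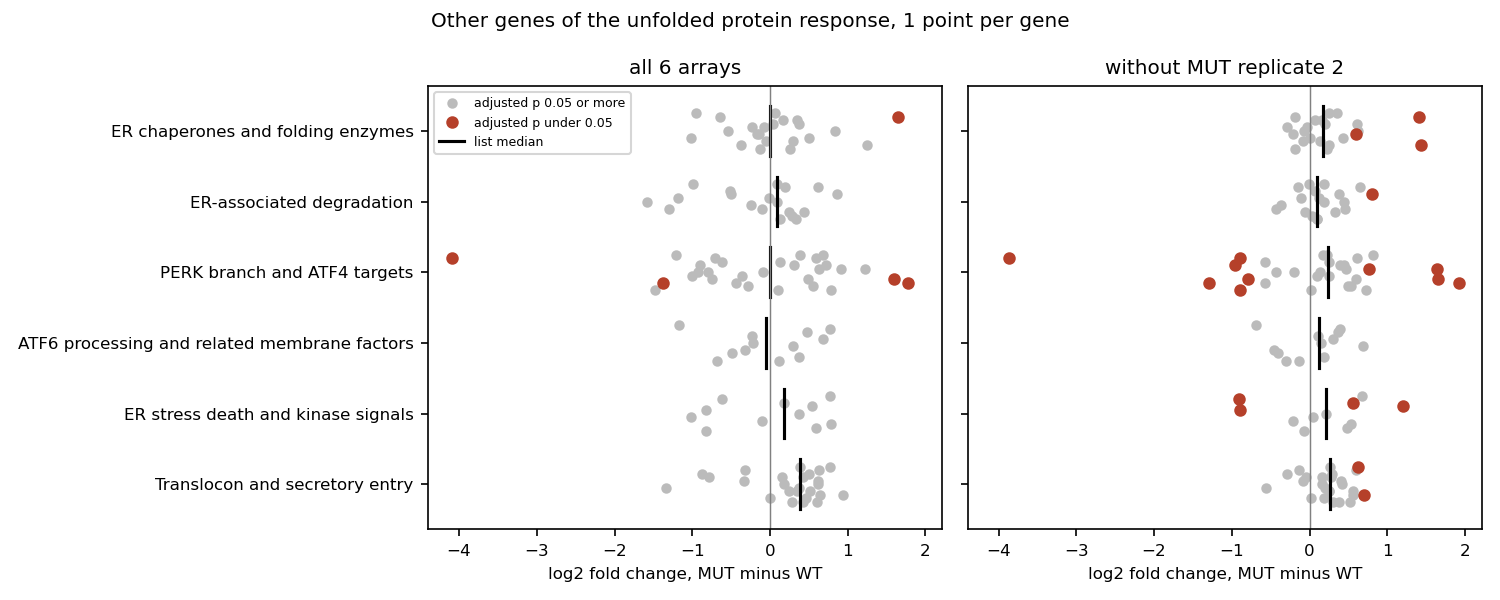
Log2 fold change of transgenic (MUT) over WT fat for 119 other genes of the response in 6 lists, 1 point per gene, with all 6 arrays (left) and without transgenic replicate 2 (right). Red points passed an adjusted p of 0.05 and black bars are list medians, which lie between −0.05 and 0.39 on the left.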

How the data were processed

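Total RNA of epididymal white fat from 3 transgenic and 3 WT mice was measured on 1 array per mouse. The deposited intensity values are linear MAS5 signals, made by the authors per the submitters' processing notes; the version, scaling target and detection calls are not stated there. Array number limits the precision. There are 0 columns of other samples. Each array holds 1 animal, so p-values reflect animal and handling differences together.

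Probe sets were named through the platform annotation: 34958 have 1 gene, 932 several and 9211 none. Log2(signal + 16) was fitted without further normalization in R 4.3.3 with limma 3.58.1 (lmFit, eBayes with trend, two-sided). The 64 control probe sets and the dimmest 40% by mean over 6 arrays were left out. Fold changes on this scale understate those of dim genes. Figures used matplotlib 3.10.9. The test was also run on simulated data, with independent noise of the same size for all probe sets of an array. Differences between probe sets on the array of transgenic replicate 2 were not imitated there.

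Members and lists were chosen with earlier results of these data known. Named genes were all member probe sets, 14 pathway genes by role, Srebf1 and the 3 genes most alike a called member, and per list up to 4 past the threshold with the largest change, then up to 3 more passing without transgenic replicate 2. Cell type markers given by name were picked after their values were seen. Of 188 genes in the pathway and marker lists, 13 had no probe set paired with them alone.

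Replicate numbers are not said to mark litters, so they were not taken as pairs. Same-numbered mice deviated from their group means with correlations of −0.37, 0.09 and −0.05. The array of transgenic replicate 2 enters the mean behind every transgenic deviation, so these correlations cannot tell whether the numbers mark litters. Alternatives were offsets of 1 and 64, no filter or 60%, quantile normalization, median centring, no trend, array weights, the replicate number or Pcx class (ratio under 10) as a block, each array left out, and the mean over probe sets.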

Additional observations from a re-analysis of the deposited data

How the results depend on the processing

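Counts are higher and lower in transgenic fat. With all arrays they were 452 and 350 for all tested probe sets, 1 and 0 for member probe sets, and 3 and 2 for the other genes of the response. With 1 array left out they ran from 91 to 1882 and from 50 to 1683 for all tested, from 0 to 1 and stayed at 0 for members, and from 0 to 12 and from 1 to 8 for the other genes. Every highest count was without transgenic replicate 2, shared for members with transgenic replicate 1, and quantile normalization on top of that gave 2417 and 2559, 3 and 2, and 23 and 15. Array weights, which gave that array the lowest weight, gave 1911 and 1448 for all tested and 16 and 7 for the other genes. With the replicate block the counts were 193 and 148 for all tested, 0 and 0 for members (Dnajb9 limma adjusted p = 0.138) and 0 and 1 for the other genes. The block and the pairing are not backed by the labels. No transgenic mouse correlated best with its own number, which cannot tell whether the numbers mark pairs. The member count was 0 higher without the filter, without the trend and with median centring. Lower genes outside the members were 1 with median centring and 1 with the Pcx class as a block, and 3 with the mean over probe sets, an offset of 1 or 64 changing none of these small counts. Quantile normalization gave 6 and 3 for the other genes, and 656 and 514 for all tested; a 60% filter gave 4 and 3. Centring or quantile normalization moved the median of all tested probe sets to 0.03 or 0.02, against −0.09 without it. Fkbp2 (−0.16) changed sign past the threshold without transgenic replicate 2, running from −0.62 to 0.60 with 1 array left out, and with quantile normalization as well (0.56). The causes of these changes were not tested.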
